A study of Mus musculus with 8 samples.

Results

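Matricellular proteins are secreted into the extracellular matrix and signal to cells through integrins and other surface receptors rather than bearing load. Some of them are sparse in the adult heart. As a class they are known to be induced when tissue is injured, where they guide inflammation, cell migration and scar formation. The mRNAs of 10 of them were examined: the thrombospondins Thbs1 and Thbs2, tenascin-C (Tnc), periostin (Postn), osteopontin (Spp1), Sparc, the CCN proteins Ccn1 and Ccn2, fibronectin (Fn1) and galectin-3 (Lgals3). They were chosen by name and not by a rule on their values, though with earlier results of these data known. Each was read from its brightest RefSeq-named probe that was well above background on at least 4 arrays. Of the 10 genes, 9 had such a probe, out of 15156 genes in all, and Tnc had none.

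Ventricles of male C57BL\6 mice were compared 24 hours after surgery between 4 mice with a permanent occlusion of the anterior interventricular artery (MI mice) and 4 sham-operated mice. Each mouse gave 1 mouse SurePrint G3 8x60K array hybridized with RNA labeled in 1 colour. The labels name the ventricles as a whole, so that values average infarcted and other tissue, and they give no further treatment or mutation. In bulk tissue, fewer cells of a type and less RNA per cell cannot be told apart. Values are log2 signals on the scale of the authors' spike-in normalization, given as mean ± SD with n = 4 mice per group. A gene was called when it differed over 2-fold with an adjusted p under 0.05 in limma.

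The share of probes well above background ran from 57.6% to 65.6% over the arrays. MI mouse 2 read lowest of the MI mice for 83.2% of 15086 genes, and sham mouse 2 lowest of the sham-operated mice for 64.7%. Scaling each array to its 75th percentile, which took such offsets out, moved the median difference of all genes from 0.07 to -0.06 on the log2 scale. Markers of cardiomyocytes, 7 of 7 of them, were well above background on all 8 arrays, and 0 were called.

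The mean of 8 of the 9 measured genes was higher after MI, with a median difference of 0.60 on the log2 scale. Without MI mouse 4 this median was 0.33. Over all 15156 genes, 58.7% were higher and the median difference was 0.07. Thbs1 was the only gene called, 1 of 9, beside 4.06% of all genes called higher. At any fold, 3 of 9 passed an adjusted p of 0.05, namely Thbs1, Ccn2 and Lgals3, beside 7.74% of all genes. For 2 of the 9, Thbs1 and Lgals3, the lowest MI mouse exceeded the highest sham-operated mouse, as it did for 9.45% of all genes.

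**Figure D1:**
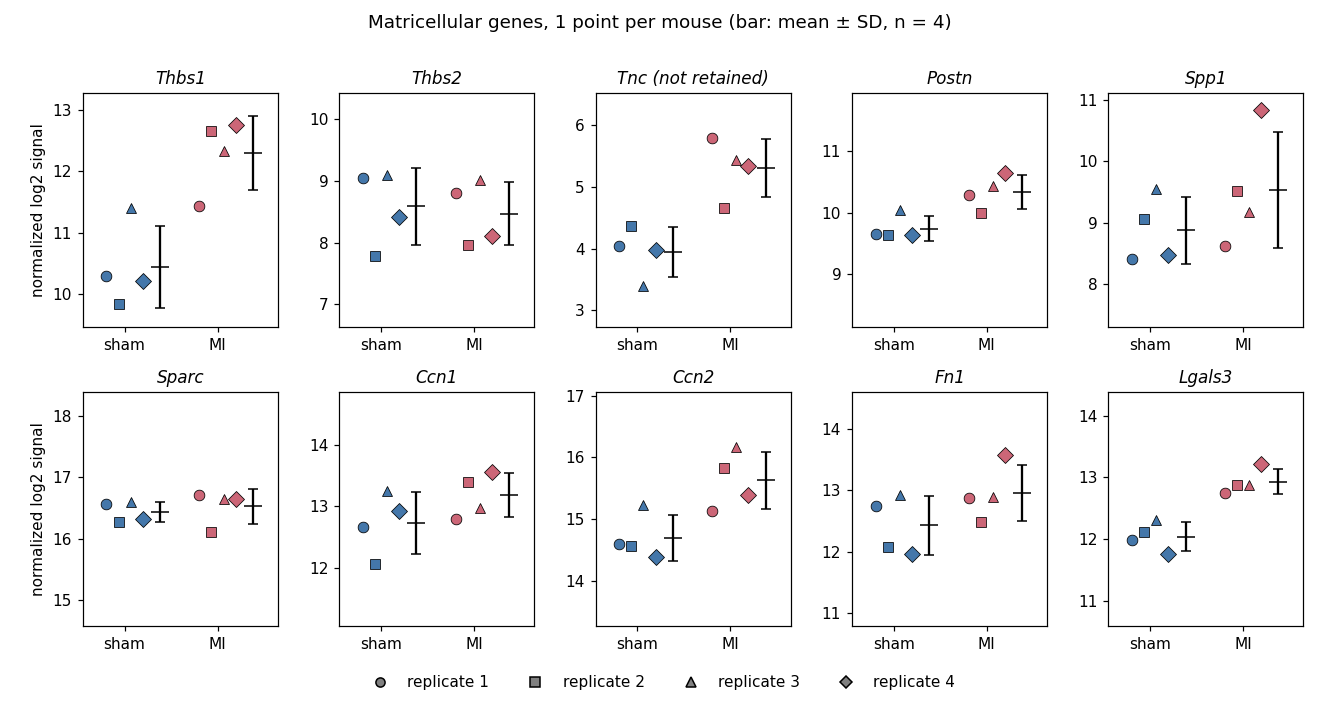
Normalized log2 signal of the 10 matricellular genes in each mouse (sham in blue, MI in red, a symbol per replicate number, each panel spanning the same range of log2 units), with a bar for the mean ± SD of 4 mice. For Thbs1 the MI mice lie between 11.44 and 12.76, just above the highest sham-operated mouse at 11.39, and for Sparc both groups lie at the same height.

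Thrombospondin-1 is released by activated platelets and made by many cells of injured tissue, where it activates latent TGF-beta and binds Cd36 and Cd47. Its gene lies on chromosome 2 (GRCm38, chr2:118111876-118127133). The log2 signal of Thbs1 was 10.30, 9.84, 11.39 and 10.22 in sham-operated mice 1 to 4 and 11.44, 12.66, 12.33 and 12.76 in MI mice 1 to 4. All 4 MI mice were above all 4 sham-operated mice, but MI mouse 1 and sham mouse 3 were only 0.05 log2 units apart. Thbs1 rose from 10.44 ± 0.67 to 12.30 ± 0.60, a difference of 1.86 log2 units (SE 0.29, 95% interval 1.26 to 2.46) or 3.62-fold (2.39 to 5.49), with an adjusted p of 7.96e-05 in limma. The exact two-sided permutation test gave p = 0.0286, the smallest that 4 against 4 mice allow. Leaving out each mouse in turn gave differences between 1.66 and 2.17, all of them called. Within rows 1 and 2 of the slide, which each held 2 mice of each group, the difference was 1.98 and 1.74. The adjusted p within these rows was 0.000141 and 0.0131 in limma.

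Thrombospondin-2 shares the receptors of thrombospondin-1 and is known for its part in collagen fibril assembly. Thbs2 (chr17:14665500-14694262) read 9.06, 7.78, 9.10 and 8.41 in the sham-operated mice and 8.80, 7.96, 9.01 and 8.12 in the MI mice. The groups overlapped throughout. The difference was -0.12 log2 units (SE 0.28, 95% interval -0.68 to 0.45, adjusted p = 0.868), and its sign turned when any of several single mice was left out.

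The difference between the genes of a family was also followed within each array, in 2 pairs chosen after their values were seen. The exact permutation p, adjusted over the 2 pairs, was 0.0571 for the thrombospondins and 0.286 for the CCN genes. It does not account for that choice. Thbs1 minus Thbs2 was 1.25 to 2.29 log2 units in sham-operated mice and 2.64 to 4.70 in MI mice, without overlap. The mean of this difference was 1.97 log2 units larger in MI mice. Ccn2 minus Ccn1 was 1.47 to 2.49 in sham-operated mice and 1.83 to 3.19 in MI mice, and the groups overlapped.

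The CCN proteins are induced early by mechanical stretch, TGF-beta and YAP, and bind integrins and proteoglycans. Connective tissue growth factor, encoded by Ccn2 (chr10:24595442-24598683), is best known as a profibrotic factor. The log2 signal of Ccn2 was 14.59, 14.56, 15.22 and 14.39 in the sham-operated mice and 15.12, 15.83, 16.17 and 15.39 in the MI mice. Only sham mouse 3 and MI mouse 1 crossed, by 0.10. Ccn2 rose from 14.69 ± 0.37 to 15.63 ± 0.46, a difference of 0.94 (SE 0.24, 95% interval 0.44 to 1.43) or 1.92-fold, with an adjusted p of 0.0138 in limma and an exact permutation p of 0.0571. The adjusted p was 0.0734 under 75th percentile scaling, 0.0626 without MI mouse 3, and under 0.05 in 7 of 12 other settings, over which it ran from 0.00014 to 0.211. Without sham mouse 3, MI mouse 1 or MI mouse 4 the difference was 1.12, 1.11 or 1.02, which passed the 2-fold limit. Within the slide rows, on 2 mice of each group, it was 0.90 and 0.97, with adjusted p of 0.508 and 0.144 in limma.

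Ccn1, an immediate early gene of the same family (chr3:145646971-145649985), read 12.67, 12.07, 13.26 and 12.92 in the sham-operated mice and 12.80, 13.40, 12.98 and 13.56 in the MI mice. MI mice 2 and 4 were above all sham-operated mice and the other two lay among them. The difference of 0.45 (SE 0.24, 95% interval -0.05 to 0.96) had an adjusted p of 0.314.

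RefSeq promoter windows, the 250 bases before a gene's start, were at hand for 7 of the 10 genes, among them Ccn1, Tnc and Lgals3. They were searched on both strands for TATAAA, for CATTCC, the letters bound by TEAD factors, for TGANTCA of AP-1, for GTCTAGAC of SMAD proteins and for the CArG box of serum response factor. The 7 genes had 10 windows, since Tnc, Postn and Spp1 each had a window at more than 1 start. TATAAA stood in 6 of the 10 windows, the overlapping windows of Tnc sharing a match, beside 12.4% of 32851 windows of all genes. These matches lay 25 or 26 bases before the start in Ccn1 and Postn, and 126 to 211 bases in Thbs2, Tnc and Spp1. That of Thbs2 was on the opposite strand. CATTCC stood in 1 of 10, beside 12.6% of all windows, and the other motifs, which 6.75%, 0.167% and 1.47% of all windows hold, in 0 of 10. The window of Ccn1 (GRCm38.p6, chr3:145649986-145650235, minus strand) is shown because it alone held both CATTCC and TATAAA, here in capitals, 103 and 25 bases before the start. A match of letters is a description and does not show that a factor binds.
Ccn1 promoter: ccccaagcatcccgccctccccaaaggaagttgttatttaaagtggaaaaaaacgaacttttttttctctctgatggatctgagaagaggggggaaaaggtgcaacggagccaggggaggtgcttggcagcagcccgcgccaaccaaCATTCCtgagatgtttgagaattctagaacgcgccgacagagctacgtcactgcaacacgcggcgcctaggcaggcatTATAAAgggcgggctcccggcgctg

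Galectin-3 binds galactose-containing sugars on matrix and cell surface proteins and is a known product of activated macrophages. The log2 signal of Lgals3 (chr14:47373860-47386167) was 11.98, 12.11, 12.31 and 11.76 in the sham-operated mice and 12.75, 12.88, 12.87 and 13.22 in the MI mice. The groups were separated by 0.44, the widest gap among the 9 genes. Lgals3 rose from 12.04 ± 0.23 to 12.93 ± 0.20, a difference of 0.89 (SE 0.21, 95% interval 0.46 to 1.32) or 1.85-fold, with an adjusted p of 0.00641 in limma and an exact permutation p of 0.0286. With each mouse left out in turn it stayed between 0.79 and 0.98, with adjusted p between 0.00489 and 0.0437. Within the slide rows, on 2 mice of each group, it was 0.77 and 1.01, with adjusted p of 0.796 and 0.0677 in limma. The adjusted p was under 0.05 in 10 of 12 other settings, and was 0.0652 without a detection filter and 0.0526 with variances not moderated across probes. Its promoter window (GRCm38.p6, chr14:47373610-47373859, plus strand, 66% G and C) is shown as that of the only gene past the test with a window at hand, and it held 0 matches to the 5 motifs.
Lgals3 promoter: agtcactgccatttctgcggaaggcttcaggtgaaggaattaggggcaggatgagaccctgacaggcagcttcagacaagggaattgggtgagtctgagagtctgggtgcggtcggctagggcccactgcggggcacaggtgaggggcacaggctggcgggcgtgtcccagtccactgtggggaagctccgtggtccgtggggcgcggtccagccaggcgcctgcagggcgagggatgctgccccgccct

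Tenascin-C is a large hexameric glycoprotein of embryonic tissue and wounds that is hardly made in the healthy adult heart. Tnc (chr4:63959785-64047015) had 2 probes, and each was well above background on 3 arrays, those of MI mice 1, 3 and 4, and on 0 of the 4 sham arrays. It was therefore not among the genes tested. The brighter probe read 4.05, 4.37, 3.40 and 3.97 in the sham-operated mice, where it was not well above background, and 5.80, 4.66, 5.43 and 5.34 in the MI mice. The groups did not overlap. Measured against the lowest signal that counted as above background on each sham array, Tnc was 2.25-fold higher in MI mice on this probe. On the other probe it was 1.86-fold higher. MI mouse 2, where neither probe was well above background, was counted at its measured value. These folds are not firm lower limits. MI mouse 2 read 4.66 and 4.73 on the 2 probes, above the lowest signal that counted on its array, 4.31. The window before its upstream start (GRCm38.p6, chr4:64047016-64047265, minus strand) is shown because Tnc was the gene detected in MI mice alone. It held TATAAA 126 bases before that start, in capitals.
Tnc promoter: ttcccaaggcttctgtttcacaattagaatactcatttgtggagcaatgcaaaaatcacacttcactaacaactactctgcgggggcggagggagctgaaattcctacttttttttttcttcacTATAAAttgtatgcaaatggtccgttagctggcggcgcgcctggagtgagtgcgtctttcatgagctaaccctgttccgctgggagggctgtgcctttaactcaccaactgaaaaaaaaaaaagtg

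Periostin is secreted by activated fibroblasts and binds collagen and integrins. Postn (chr3:54359267-54391041) read 9.65, 9.64, 10.04 and 9.64 in the sham-operated mice and 10.29, 9.995, 10.44 and 10.65 in the MI mice. Sham mouse 3 stood apart from the other sham-operated mice and just above MI mouse 2, and all other MI mice were higher. The difference of 0.60 (SE 0.21, 95% interval 0.17 to 1.03), or 1.52-fold, had an adjusted p of 0.0862 in limma and an exact permutation p of 0.0571. Without MI mouse 2 the difference was 0.72 with an adjusted p of 0.0277, and the adjusted p was under 0.05 in 3 of 12 other settings, over which it ran from 0.0175 to 0.334.

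Osteopontin is a phosphoprotein of bone and of activated macrophages that binds integrins and Cd44. Spp1 (chr5:104435111-104441053) read 8.41, 9.06, 9.55 and 8.48 in the sham-operated mice and 8.63, 9.52, 9.18 and 10.84 in the MI mice. MI mouse 4 was far above all others, and the remaining MI mice lay within the range of the sham-operated mice. The difference of 0.66 (SE 0.33, 95% interval -0.01 to 1.34) had an adjusted p of 0.258, and without MI mouse 4 it was 0.23.

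Fibronectin forms the provisional matrix of wounds and carries the binding site of the integrin with the chains Itga5 and Itgb1. Fn1 (chr1:71585473-71653280) read 12.74, 12.08, 12.92 and 11.97 in the sham-operated mice and 12.87, 12.49, 12.89 and 13.58 in the MI mice. Only MI mouse 4 was above all sham-operated mice. The difference of 0.53 (SE 0.25, 95% interval 0.01 to 1.05) had an adjusted p of 0.236 in limma, and the exact permutation p was 0.2.

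Sparc binds collagen and calcium and is made by fibroblasts and endothelial cells. The log2 signal of Sparc (chr11:55394159-55420080) was 16.56, 16.28, 16.59 and 16.32 in the sham-operated mice and 16.71, 16.11, 16.65 and 16.64 in the MI mice. MI mouse 2 was the lowest of all 8 and the other MI mice were the highest. The difference was 0.09 (SE 0.21, 95% interval -0.34 to 0.52, adjusted p = 0.863), a ratio between 0.790 and 1.44, and it was -0.03 under 75th percentile scaling. The second Sparc probe gave 0.10 with an adjusted p of 0.849.

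**Figure D2:**
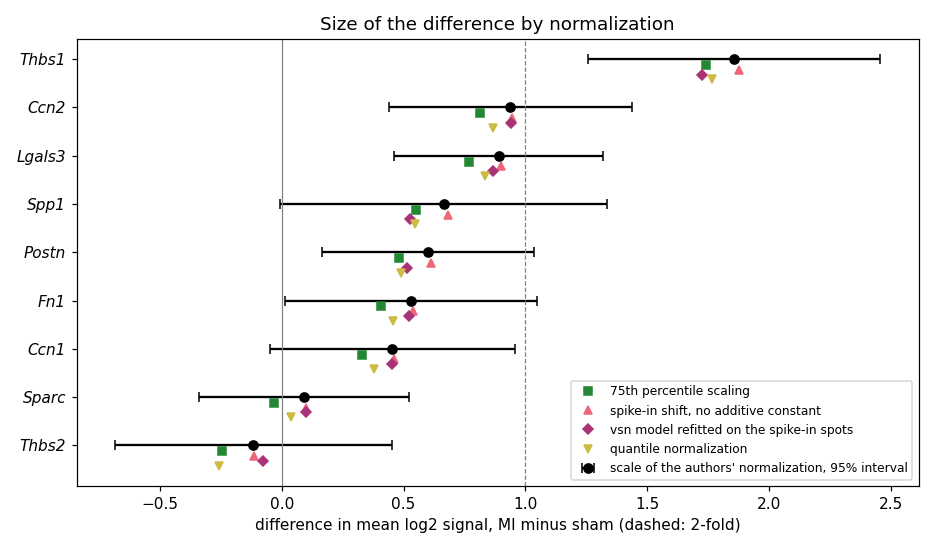
Difference in mean log2 signal, MI minus sham, for the 9 measured genes on the scale of the authors' normalization (black, with the 95% interval from limma) and under 4 other normalizations (coloured symbols). Thbs1 alone lies past the dashed 2-fold line, between 1.72 and 1.87 under the normalizations drawn, and only Sparc crosses 0 between them.

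The same mice recurred at the ends of the ranges. Sham mouse 3 was the highest sham-operated mouse for 9 of the 9 genes, while it was highest for 46.2% of all genes. Under 75th percentile scaling it was highest for 4 of 9, and for 21.9% of all genes. MI mouse 4 was the highest MI mouse for 6 of 9 genes (22.8% of all genes), and for 4 of 9 under 75th percentile scaling (27.0% of all genes). MI mouse 1 was the lowest MI mouse for 5 of 9 genes (3.9% of all genes), and for 6 of 9 under that scaling (19.1%). MI mouse 2 was lowest for 4 of 9 genes (83.2% of all genes), and for 0 of 9 under that scaling (26.9%). Without sham mouse 3, the highest of its group, the differences could only widen, to 2.17 for Thbs1, 1.12 for Ccn2 and 0.98 for Lgals3. Without MI mouse 4 they were 1.70 for Thbs1, 1.02 for Ccn2 and 0.79 for Lgals3. Spp1, Fn1 and Ccn1 then differed by 0.23, 0.32 and 0.33. The median difference of the 9 genes was 0.33 without MI mouse 4, and 0.53 to 0.70 without any other single mouse.

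Receptors to which these proteins bind were followed as a list. Of 21 receptor genes, all measured, 4 were called higher and 1 lower, beside 4.6% of all genes called in either direction. At any fold 9 rose and 1 fell, beside 9.51% of all genes, and the median difference was 0.27. Itga5, the fibronectin receptor chain, rose by 2.48 log2 units (SE 0.23, adjusted p = 3.17e-08) from 9.13 ± 0.34 to 11.60 ± 0.42. Itgb3, a chain of receptors for osteopontin and thrombospondin-1, rose by 1.40 (SE 0.21, adjusted p = 5.32e-05). Cd44, the hyaluronan receptor that also binds osteopontin, rose by 1.37 (SE 0.22, adjusted p = 0.000108). Itga3, a laminin receptor chain, rose by 1.15 (SE 0.24, adjusted p = 0.00215). Itga8, whose integrin binds fibronectin and osteopontin, went the other way and fell by 1.12 (SE 0.26, adjusted p = 0.00551). With the vsn model refitted on the spike-in spots, the differences of Itga3 and Itga8 were 0.60 (adjusted p = 0.0651) and -0.49 (adjusted p = 0.104), which were not called.

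Among receptors not called, Anxa2, a tenascin-C receptor, rose by 0.89 (SE 0.21, adjusted p = 0.00641). Cd36, a thrombospondin-1 receptor and fatty acid transporter, differed by -0.24 (SE 0.22, adjusted p = 0.602). The receptors that follow were named after their values were seen. Itgb1, the partner of Itga5, rose by 0.92 (adjusted p = 0.00363), and the proteoglycan Sdc4 by 1.00 (adjusted p = 0.00342), both below 2-fold. Cd47, the other thrombospondin-1 receptor, differed by -0.17 (SE 0.21, adjusted p = 0.704).

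TGF-beta signalling is tied to these proteins in both directions, since thrombospondin-1 activates the latent factor and the factor induces Ccn2, Fn1 and Postn. Of 18 such genes, all measured, 2 were called higher (1 under 75th percentile scaling) and 0 lower, 3 rose at any fold, and the median difference was 0.17. Of all genes, 4.06% were called higher and 7.74% rose at any fold. Tgfb2 rose by 1.72 (SE 0.24, adjusted p = 1.21e-05), and the corepressor Tgif1 by 1.04 (SE 0.22, adjusted p = 0.00295). The receptors Tgfbr2 and Eng, the brightest genes not called, differed by 0.19 (adjusted p = 0.712) and 0.40 (adjusted p = 0.399).

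Ccn1 and Ccn2 are also known targets of YAP and its TEAD partners. Of 14 further genes of this pathway, all measured, 1 was called higher and 0 lower, 3 rose at any fold, and the median difference was 0.22, again beside 4.06% of all genes called higher and 7.74% that rose. Ankrd1, a target gene and a stress marker of cardiomyocytes, rose by 1.00 (SE 0.21, adjusted p = 0.00197), and by 0.88 under 75th percentile scaling, which is below 2-fold. Yap1 and Tead1, the brightest genes not called, differed by 0.02 (adjusted p = 0.968) and 0.08 (adjusted p = 0.890). The other TEAD genes were named after their values were seen. Tead4 rose by 0.94 (adjusted p = 0.00428) and Tead3 by 0.82 (adjusted p = 0.0136), while Tead2 differed by -0.0050. Under 75th percentile scaling Tead4 was the gene called (1.005, adjusted p = 0.0108). With the refitted vsn model it rose by 0.22 (adjusted p = 0.155).

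Relatives of the 10 proteins were read in the same way. Of 31 genes of the same protein families, 25 were measured, 1 was called higher and 0 lower, 4 rose and 1 fell at any fold, beside 4.6% of all genes called and 9.51% past the test at any fold. The median difference was 0.04. Under 75th percentile scaling 0 were called higher and 1 lower, 4 rose and 4 fell at any fold, and the median was -0.10. Ccn4, a CCN family member induced by WNT signals, rose by 1.05 (SE 0.22, adjusted p = 0.0026), or 2.07-fold, and by 0.97 under 75th percentile scaling. The brightest relatives not called were Lgals1, with a difference of -0.0050 (adjusted p = 0.993), and Sparcl1, with -0.46 (adjusted p = 0.250).

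Of 16 structural matrix genes, all measured, 2 were called higher and 0 lower, and the median difference was 0.07, or -0.05 under 75th percentile scaling, where 1 was called, beside 4.06% of all genes called higher. Both were basement membrane collagens that share a promoter, Col4a1 with a rise of 1.21 (SE 0.24, adjusted p = 0.00157) and Col4a2 with 1.06 (SE 0.24, adjusted p = 0.00436). The fibrillar collagen gene Col1a2 differed by -0.44 (SE 0.27, adjusted p = 0.388) and the laminin gene Lamc1 by 0.26 (SE 0.25, adjusted p = 0.629).

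**Figure D3:**
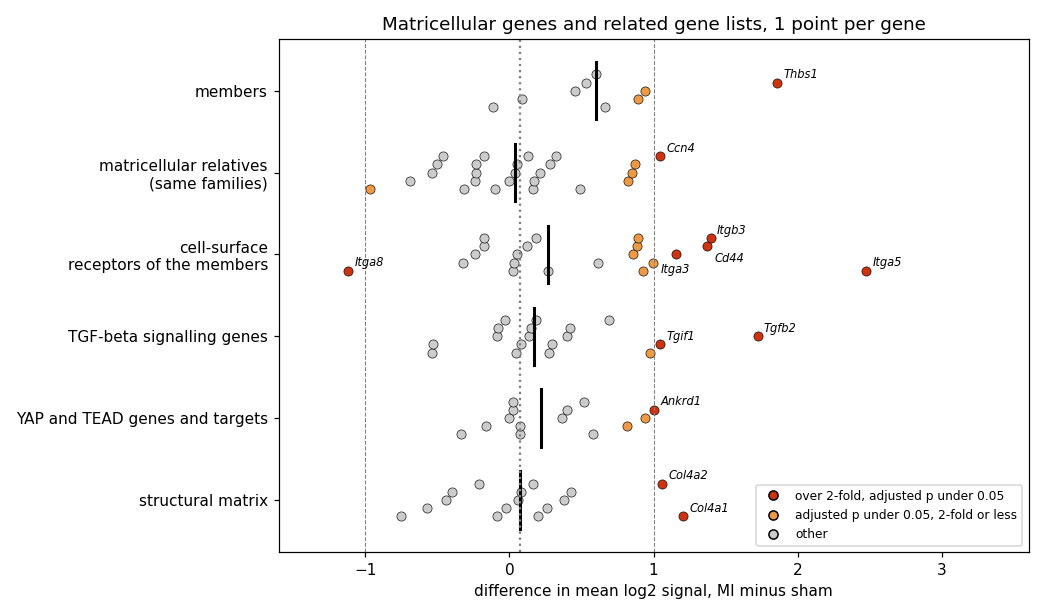
Difference in mean log2 signal, MI minus sham, with 1 point per gene for the 9 measured matricellular genes (top) and 5 lists of related genes, coloured by the test. Black bars are list medians, the dotted line is the median of 15156 genes (0.07) and dashed lines mark 2-fold, and the matricellular median of 0.60 lies to the right of the 5 other medians.

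Markers of some blood cells were higher beside these genes. The share of all genes called higher, for the counts below, was 4.06%. Of 7 neutrophil markers, 6 were measured and 5 were called higher, and their summed signal was 203717 to 315675 in MI mice and 61369 to 80246 in sham-operated mice. Of 8 markers of monocytes and macrophages, 7 were measured and 2 were called higher, Ccr2 and Cd14, and the summed signal of 16746 to 23873 in MI mice overlapped with 12508 to 19537 in sham-operated mice. Cd14, a receptor for bacterial endotoxin, rose by 2.25 (adjusted p = 1.34e-06), while the macrophage gene Adgre1 differed by -0.24 (adjusted p = 0.618), and Cd68 and Ly6g were matched to no probe by accession and are not analysed here. Of 6 platelet markers, all measured, 1 was called higher, Ppbp with 1.08 (adjusted p = 0.00261), and 0 under 75th percentile scaling. Their summed signal of 19779 to 30801 in MI mice was above the 15865 to 18072 of the sham-operated mice. Most of this sum came from Pf4, platelet factor 4, whose difference of 0.53 did not pass the test (adjusted p = 0.131), and Treml1, a receptor of platelet granules, differed by 0.10 (adjusted p = 0.871).

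Of 7 fibroblast markers, all measured, 0 were called, with a median difference of -0.19, and 3 were higher at any size. At any fold 1 passed the test, beside 7.74% of all genes that rose. It was Mfap5, with a rise of 0.79 (adjusted p = 0.0147). Lum and Dcn differed by -0.56 (adjusted p = 0.217) and -0.38 (adjusted p = 0.470). These 3 were named after their values were seen. Their summed signal was 47301 to 111298 in MI mice and 74214 to 123998 in sham-operated mice. Endothelial markers (6 of 6 measured) and markers of smooth muscle and pericytes (5 of 5) had 0 calls and medians of 0.06 and -0.27. Markers of T cells (3 of 5 measured) and B cells (4 of 4) also had 0 calls. At any fold, Cd3d of the T cell receptor complex rose by 0.90 (adjusted p = 0.00598) and Cd79b of the B cell receptor by 0.73 (adjusted p = 0.0321, and 0.0863 under 75th percentile scaling), both named after their values were seen. The summed B cell signal was 262 to 344 in MI mice and 154 to 221 in sham-operated mice, without overlap. Only 1 of the 4 B cell markers was well above background on all 8 arrays. The B cell median of 0.70 was 0.09 under the refitted vsn model. The summed T cell signal of 4882 to 8901 in MI mice overlapped with 4652 to 9879 in sham-operated mice. Of the 3 measured T cell markers, 2 were higher at any size. Of the other T cell markers, Trac was matched to no probe by accession and Cd8a was well above background on 1 array. The part of any of these cells in the differences of Thbs1, Ccn2 and Lgals3 was not tested.

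**Figure D4:**
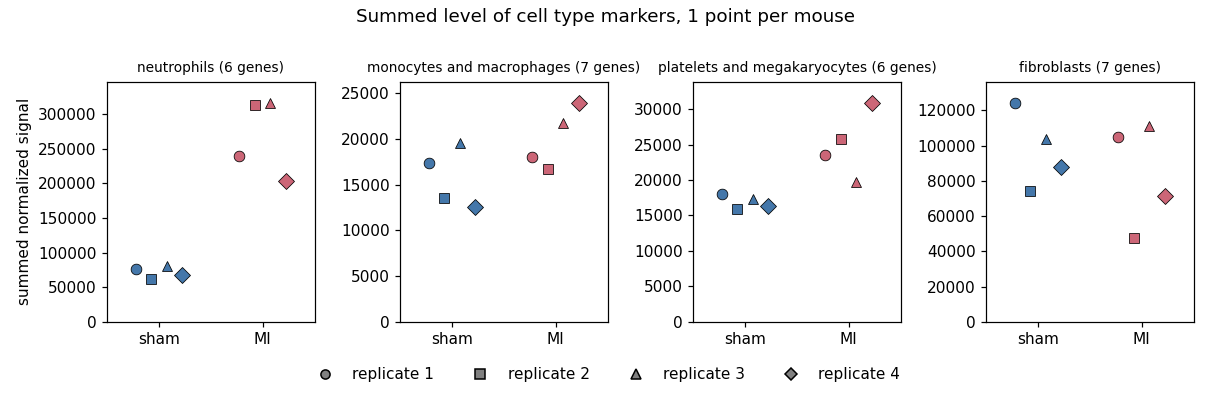
Summed normalized signal (linear axis from 0) of the measured markers of 4 cell types, with 1 point per mouse and a symbol per replicate number. Neutrophil and platelet sums of the MI mice lie above those of every sham-operated mouse, and those of monocytes and macrophages and of fibroblasts overlap.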

How the data were processed

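Per the file headers, the deposited intensities were processed signals of Feature Extraction 11.0.1.1, with background subtracted and no normalization between arrays. The authors' deposited log2 values came from those signals through limma and vsn with the spike-in probes. Setting each array against its log2 values recovered the additive constant (3.16 to 19.6) and shift of every array, with a misfit of at most 5.02e-09, and this scale was applied to all spots. A refit of vsn on 234 spike-in spots gave constants of 166 to 256 and is an alternative.

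Spots flagged as outliers were left out, spots of a probe were averaged, and a probe was kept when at least 4 of 8 arrays showed it well above background (34038 of 55681 probes, controls not counted). Names came through RefSeq accessions (26582 probes matched, 19704 of them retained, 15156 genes). MI and sham-operated mice, grouped by their labels, were compared in limma 3.58.1 (R 4.3.3) without covariates, with p-values adjusted over all retained probes by the Benjamini-Hochberg method, and for single genes by the exact permutation test over 70 splits. Python 3.11.15 with numpy 2.4.6, scipy 1.17.1, pandas 2.3.3 and matplotlib 3.10.9 was used for the rest. The scripts were tested on simulated data. Of each related list, called genes (at most 6) and the 2 brightest uncalled genes were named. A gene of the TGF-beta list is not reported here and was left out of that list's counts. The genes, lists and tests were chosen with earlier results of these data known. The number of arrays limits the precision. The mice were not treated as paired by replicate number. The 8 arrays lay in 2 rows of 1 slide, with 2 mice of each group per row. Alternatives were other normalizations, background corrections, detection filters and tests, blocks, and leaving out each mouse.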

Additional observations from a re-analysis of the deposited data

Results flagged for a closer look

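In 2 of 24 gene and group combinations a single mouse stood apart from its group by Dixon's criterion, and chance alone gives about 1 such group in 20. For Postn, sham mouse 3 was higher than the other sham-operated mice, with a gap of 0.971 of the range. For the brightest Sparc probe, MI mouse 2 was lower than the other MI mice, with a gap of 0.895.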

How the results depend on the processing

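The number of called probes, 1184, stayed within 1.5 times in the alternatives other than the refitted vsn (333), normexp background correction (609) and a plain t-test after adjustment (578), and leaving out each mouse gave 1046 to 1461. Of the calls, 88.3% were higher in MI mice, against 72.2% under 75th percentile scaling and 67.5% under quantile normalization. Thbs1 was called in 11 of 12 other settings, among them significance analysis of microarrays, the test of the study's methods (q = 0.00078, with 4 of the 9 genes past 0.05), and the plain t-test left 0 genes called (adjusted p of 0.118 for Thbs1). Without single mice 1 to 2 genes were called, the second being Ccn2. The 3 genes past an adjusted p of 0.05 became 1 without a detection filter and 0 in the plain t-test, and 2 to 4 without single mice. The replicate number as a block gave 1155 probes and 1 of the 9 genes called, with 4 past an adjusted p of 0.05 (Postn added, 0.0336). With this block 4895 probes passed an adjusted p of 0.05 at any fold, against 2590 without it. Same-numbered mice correlated in their deviations at 0.265, 0.227, 0.0388 and 0.0114. MI mice 1 and 2 correlated best with their own number, and MI mice 3 and 4 with another. Whether the numbers mark anything shared was not tested. The sign of Thbs2 turned without sham mouse 1 (0.04), sham mouse 3 (0.0557), MI mouse 2 (0.05) or MI mouse 4 (0.0022), the range without single mice being -0.386 to 0.0557, and that of Sparc under 75th percentile scaling (-0.0338) and within row 1 of the slide (-0.0101). The cause of these changes was not tested. Of 199 values of single genes under alternatives, 175 kept direction and side of the threshold. Tnc was limited by its signal, which was near background.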
